A study of Mus musculus with 18 samples.

Results

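The vascular genes examined were 10 genes of endothelial cells and of the blood vessel barrier, measured among 55416 genes in the optic nerve head of aged mice. They were taken as a fixed list of symbols: Pecam1, Cldn5, Cdh5, Tek, Flt1, Kdr, Vwf, Slc2a1, Abcb1a and Eng. In GRCm38 Eng lies on chromosome 2, Tek and Slc2a1 on 4, Abcb1a, Kdr and Flt1 on 5, Vwf on 6, Cdh5 on 8, Pecam1 on 11 and Cldn5 on 16, and each gene value is the sum over its isoforms. RNA was sequenced from 18 libraries of tissue excised from sections by laser capture microdissection. Per the labels, 5 libraries came from C57BL/6J mice at 12 months, 5 from C57BL/6J mice at 22 months, 5 from B6.EDA+/+ mice at 12 months and 3 from B6.EDA+/+ mice at 22 months. As background, EDA+/+ mice carry a fibronectin gene engineered so that every transcript includes the extra domain A (EDA) exon, in all tissues. The labels name no other allele or agent, give no sex, and do not say whether each library is a separate animal, so that p-values measure the spread between libraries, which may be technical.

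Endothelial cells line every vessel and in nervous tissue form a barrier: claudin 5 and VE-cadherin seal the cell contacts, and transporters decide what crosses. Vascular endothelial growth factor (VEGF) and the angiopoietins, acting through receptors on these cells, set vessel growth and leakiness. The front of the optic nerve head is known for an incomplete barrier, since its border with the choroid lets plasma solutes in.

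Several facts of the whole series bear on the values. The libraries held 13097498 to 18488733 expected counts, the read numbers that RSEM estimates for each gene. By the isoform estimates of RSEM, the EDA exon itself did not follow the labels. Its median share of fibronectin isoforms in control-labelled groups was 0% at 12 months and 8.9% at 22 months. In EDA-labelled groups the medians were 8.23% and 0%. The highest shares at 12 and 22 months were 96.2% and 100% in control-labelled groups, and 58.5% and 12.6% in EDA-labelled groups. The share was at 0 in 9 of 18 libraries. These shares rest on 8 isoforms, 4 of them with the exon, spread widely within groups, and their read support was not examined. Groups are therefore called EDA-labelled and control-labelled. Each difference between labels below is EDA-labelled less control-labelled, a comparison of labels that these estimates did not bear out. The gene ENSMUSG00000119584, which has no symbol in the table used, took 3.26% to 32.8% of the reads of a library. Among markers, photoreceptor transcripts summed to 4480 TPM (a level scaled for transcript length and library total) in control-labelled replicate 2 at 22 months, skeletal muscle transcripts to 270 TPM in EDA-labelled replicate 1 at 22 months, and EDA-labelled replicate 4 at 12 months had the lowest ENSMUSG00000119584 share. Xist exceeded the Y-linked genes in 5 of 18 libraries, in 3 of the 4 groups.

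The sequences that matter most here are those of Flt1, because its reads divided among 3 isoforms that end in different places. Flt1 encodes VEGF receptor 1, which binds VEGF tightly and is also made as a secreted form that acts as a decoy. In GRCm38 the gene (ENSMUSG00000029648) spans chr5:147561604-147726011 and is read from the minus strand. Flt1-202 is the full-length receptor of 30 exons, with 3999 coding bases. Flt1-203 runs past the end of exon 13 into the intron and has 2064 coding bases, the form of the soluble receptor. Flt1-201 leaves the receptor transcript after exon 11 and is annotated as a processed transcript with no coding sequence. The lines below give 30 bases on each side of the points where they part, from GENCODE transcripts, 5′ to 3′, with the bases after the point in capitals.
Flt1-202 at the end of exon 13: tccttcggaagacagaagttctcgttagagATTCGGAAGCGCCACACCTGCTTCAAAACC
Flt1-203 at the end of exon 13: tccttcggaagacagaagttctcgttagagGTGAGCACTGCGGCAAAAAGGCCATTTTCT
Flt1-202 at the end of exon 11: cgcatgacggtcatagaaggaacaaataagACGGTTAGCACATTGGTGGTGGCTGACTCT
Flt1-201 at the end of exon 11: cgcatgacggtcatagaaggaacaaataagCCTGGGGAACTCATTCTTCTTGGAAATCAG

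Both VEGF receptor promoters are shown because Flt1 and Kdr, each summed over its isoforms, stood far apart in level. The full-length Flt1 isoform alone had a median of 3.48 TPM, and 80.5% of Kdr reads were assigned to isoforms retaining introns. Each line is the 250 bases before the transcription start, from RefSeq on GRCm38.p6. The capitals mark GGAAG or its reverse complement CTTCC, the core bound by ETS factors, which are regulators of many endothelial genes.
Flt1, chr5:147726012-147726261, minus strand: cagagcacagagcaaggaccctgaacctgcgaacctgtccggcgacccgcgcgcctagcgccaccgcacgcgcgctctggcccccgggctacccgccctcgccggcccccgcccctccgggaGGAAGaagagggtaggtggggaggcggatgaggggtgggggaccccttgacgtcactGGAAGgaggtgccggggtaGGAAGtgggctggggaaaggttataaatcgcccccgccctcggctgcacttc
Kdr, chr5:75978456-75978705, minus strand: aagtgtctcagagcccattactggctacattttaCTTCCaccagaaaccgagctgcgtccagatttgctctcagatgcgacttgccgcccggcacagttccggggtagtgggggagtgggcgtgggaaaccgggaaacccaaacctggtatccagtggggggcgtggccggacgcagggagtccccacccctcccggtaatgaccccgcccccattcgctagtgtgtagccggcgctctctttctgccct
The Flt1 window held 3 matches to GGAAG or CTTCC and the Kdr window 1. Both windows also hold copies of GGAA that were not marked or counted, so these counts do not compare ETS cores. Of the 7 members with an entry, 4 held the motif on either strand: Flt1, Kdr, Eng with 2 and Abcb1a with 2. It occurred in 64.1% of 32851 promoter windows of the same length. The Abcb1a window, chr5:8566841-8567090, lies before a RefSeq start far upstream of the start that GENCODE gives the gene, chr5:8660077. Of GGAAG and CTTCC no copy lay in the Cldn5, Tek and Slc2a1 windows. A match is a description of letters, not a measured binding site.

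The 10 genes fell into a readily detected group and a sparse one. Slc2a1, Flt1, Eng, Vwf, Tek and Cdh5 had 10 or more reads in all 18 libraries, whereas Cldn5 did in 13, Kdr in 12, and Pecam1 and Abcb1a in 9. All 10 passed the filter on low counts, for which 15118 genes of the series qualified. The classical endothelial marker Pecam1 thus lay near the detection limit in tissue where Vwf and Tek were plentiful. For a difference between libraries of bulk tissue, fewer endothelial cells and less RNA per cell cannot be told apart.

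By median TPM over 18 libraries the order was Slc2a1 at 111, Flt1 at 52.8, Eng at 24.2, Vwf at 18.8, Tek at 18.2, Cdh5 at 6.08, Cldn5 at 3.33, Kdr at 0.58, Pecam1 at 0.425 and Abcb1a at 0.265. The gap between neighbours exceeded the larger SD over libraries only between Slc2a1 and Flt1 and between Tek and Cdh5, each with the first gene higher in 17 of 18 libraries. Flt1 lay above Eng in 18 of 18 libraries although the gap between their medians was under the SD. The other 6 neighbouring pairs did not differ beyond their spread.

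**Figure D1:**
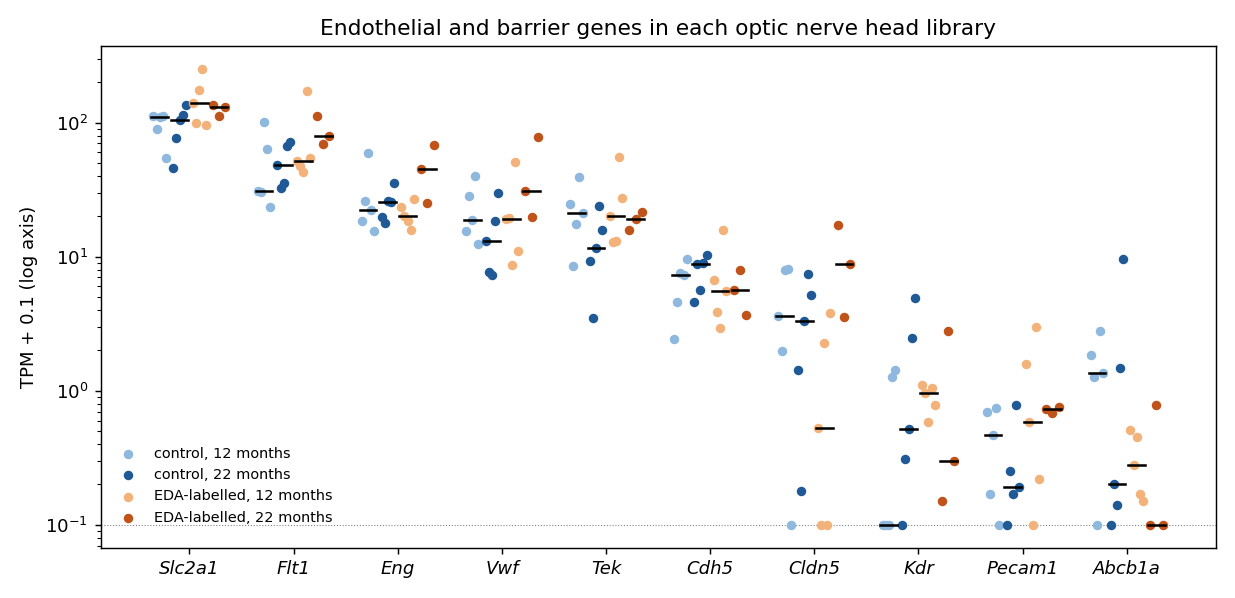
TPM plus 0.1 on a log axis for each of the 10 genes; each point is a library, coloured by group, and each black bar is the group median, with the dotted line marking 0 TPM. Slc2a1 has the highest median, at 111 TPM, and Kdr, Pecam1 and Abcb1a reach 0 in 3 or 4 libraries.

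The levels of the 10 genes summed to 139 to 322 TPM in control-labelled libraries at 12 months (median 209), and to 142 to 318 at 22 months (median 195). In EDA-labelled libraries the sum was 205 to 564 at 12 months (median 264) and 260 to 390 at 22 months (median 361). All 4 ranges overlapped. These sums were not adjusted for the share of ENSMUSG00000119584, which was 3.26% in the library at 564 TPM and 31% in the library at 139. The part of that share in the sums was not tested. The other 22 pan-endothelial genes of a list not containing these 10 summed to 165 to 369, 166 to 342, 254 to 409 and 267 to 446 TPM in the same order of groups. Of those 22 genes, 19 had 10 or more reads in at least 9 libraries. Their most abundant members were Adgrl4, an adhesion receptor of endothelial cells, with a median of 86.2 TPM, the surface sialomucin Podxl at 32.5 and the ETS factor Fli1 at 28.4.

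Slc2a1 encodes the glucose transporter GLUT1, which carries glucose across barrier endothelium and is also made by astrocytes. At 12 months Slc2a1 stood at 203, 188, 165, 180 and 95.4 CPM (reads scaled to the library total with TMM factors) in control-labelled libraries and at 226, 168, 274, 327 and 109 in EDA-labelled ones. At 22 months Slc2a1 stood at 93.6, 152, 167, 159 and 190 CPM in control-labelled libraries and at 214, 167 and 229 in EDA-labelled ones. The highest values were EDA-labelled and the lowest control-labelled at both ages, but the groups overlapped at both. The fitted difference between labels averaged over ages was 0.41 ± 0.23 (log2, SE), and its adjusted p was 1 by edgeR's quasi-likelihood test with Benjamini-Hochberg adjustment over all 15118 genes.

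Abcb1a encodes the drug efflux pump P-glycoprotein of barrier endothelium. It had 94, 41, 0, 97 and 62 reads in control-labelled libraries at 12 months, against 18, 9, 11, 2 and 2 in EDA-labelled ones. At 22 months Abcb1a had 0, 5, 2, 70 and 20 reads in control-labelled libraries and 0, 31 and 0 in EDA-labelled ones. At 12 months 4 of 5 control-labelled libraries were above every EDA-labelled library and 1 was at 0. The fitted difference at 12 months was -2.85 ± 1.60 (adjusted p = 1, edgeR). Where a library had 0 reads, the 3 reads that such a count allows amount to 0.162 to 0.229 CPM across libraries, for counting error only. The highest TPM of Abcb1a, 9.53 in control-labelled replicate 5 at 22 months, rested on 20 reads.

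Cldn5 encodes claudin 5, the main sealing protein of endothelial tight junctions. At 12 months Cldn5 had 53, 25, 113, 130 and 0 reads in control-labelled libraries and 5, 0, 34, 0 and 45 in EDA-labelled ones. At 22 months Cldn5 had 18, 1, 41, 97 and 69 reads in control-labelled libraries and 222, 41 and 134 in EDA-labelled ones. The highest 2 libraries of all 18 were thus EDA-labelled at 22 months, and the groups of each comparison overlapped. The fitted difference between labels was 1.64 ± 1.45 at 22 months and -2.0 ± 1.33 at 12 months (adjusted p = 1 for both, edgeR). The value at 22 months turned to -0.20 when the ENSMUSG00000119584 share was added to the fit as a covariate.

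Cdh5 encodes VE-cadherin, the adhesion molecule of endothelial adherens junctions. At 12 months Cdh5 stood at 7, 14.5, 21.5, 19.3 and 22.2 CPM in control-labelled libraries and at 15.3, 10, 7.15, 39.9 and 13.1 in EDA-labelled ones. At 22 months Cdh5 stood at 14.6, 29.4, 13.6, 21.5 and 30.8 CPM in control-labelled libraries and at 13.2, 19.5 and 14.1 in EDA-labelled ones. The value of 39.9 came from EDA-labelled replicate 4, the library with the least ENSMUSG00000119584, and was the highest of all 18. Cdh5 had the narrowest spread after Slc2a1, with a coefficient of variation of 48.2% against 39.2% in TPM.

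Pecam1 encodes the adhesion molecule CD31 of endothelium, platelets and leukocytes. At 12 months Pecam1 had 20, 2, 13, 18 and 0 reads in control-labelled libraries, against 22, 14, 0, 59 and 1 in EDA-labelled ones. At 22 months Pecam1 had 0, 3, 2, 19 and 3 reads in control-labelled libraries and 16, 9 and 10 in EDA-labelled ones. Its highest count was again in EDA-labelled replicate 4 at 12 months. With 9 libraries under 10 reads, the fitted differences carried SEs of 1.11 to 1.72 in the 5 comparisons other than the interaction, larger than each difference.

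Among the receptor genes, Flt1 had the highest level, summed over its isoforms. At 12 months Flt1 stood at 74.3, 73.8, 207, 127 and 55.2 CPM in control-labelled libraries and at 97.2, 95.4, 78.9, 356 and 98.5 in EDA-labelled ones. At 22 months Flt1 stood at 122, 105, 72.1, 113 and 175 CPM in control-labelled libraries and at 190, 132 and 237 in EDA-labelled ones. At 22 months 2 of 3 EDA-labelled libraries lay above all 5 control-labelled ones. At 12 months 4 of 5 EDA-labelled libraries lay within the control-labelled range, and replicate 4 lay above it. The fitted difference between labels was 0.66 ± 0.49 at 22 months and 0.43 ± 0.43 at 12 months (adjusted p = 1 for both, edgeR), and it was -0.22 at 12 months without replicate 4.

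Most Flt1 reads were not assigned to the full-length receptor. RSEM gave Flt1-202 a median of 15.1% of the Flt1 reads of a library (2.95% to 46.5%), Flt1-203 34.7% (16.7% to 51.3%) and Flt1-201 49.8% (32.1% to 57.7%). In 15 of 18 libraries the soluble form had more reads than the full-length one, with a median ratio of 2.28 and a range of 0.461 to 14.2. On the TPM scale the full-length form had a median level of 3.48, the soluble form 8.38 and the short form 39.4. By these estimates the high level of the gene was mostly that of Flt1-201, the shortest of the 3.

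The isoform shares of the 4 groups overlapped. The soluble form took a median of 33.8% in control-labelled libraries at 12 months, 31.9% in control-labelled libraries at 22 months, 35.1% in EDA-labelled libraries at 12 months and 37.8% in EDA-labelled libraries at 22 months. The lowest and highest shares of the soluble form, 16.7% and 51.3%, were both in control-labelled libraries. These shares are estimates. Of the 2049 bases of Flt1-201, 241 lie past the point where it leaves the receptor transcript. How RSEM divided the reads before that point was not tested. Of the 6292 bases of Flt1-203, 4066 lie past the point where it leaves the receptor transcript, in what is an intron of Flt1-202, and the part of unspliced RNA in its reads was not tested.

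**Figure D2:**
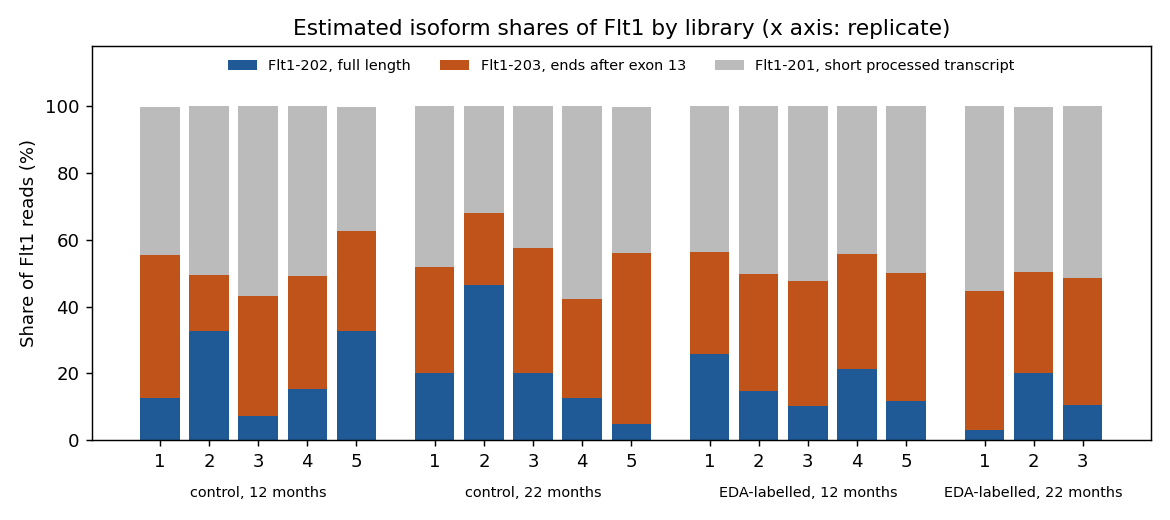
Share of Flt1 reads, in percent, that RSEM assigned to each of 3 isoforms in each of the 18 libraries, as stacked bars by group and replicate. The full-length receptor (blue) takes 2.95% to 46.5% and is the smallest share in 15 of 18 libraries.

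Kdr encodes VEGF receptor 2, the main signalling receptor for VEGF in endothelium. At 12 months Kdr had 0, 0, 0, 45 and 52 reads in control-labelled libraries, against 28, 51, 18, 36 and 20 in EDA-labelled ones. At 22 months Kdr had 0, 8, 13, 81 and 155 reads in control-labelled libraries and 2, 96 and 11 in EDA-labelled ones. All 5 EDA-labelled libraries at 12 months had reads, against 2 of 5 control-labelled ones, and those 2 lay near the top of the EDA-labelled range or above it. Of all Kdr reads, 80.5% were assigned to isoforms annotated as retaining introns and 19.5% to the coding isoform, which had reads in 5 libraries.

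Tek encodes TIE2, the receptor for the angiopoietins, which stabilises vessels. At 12 months Tek stood at 79.8, 30.5, 50.9, 112 and 62 CPM in control-labelled libraries and at 49.6, 36.5, 35.6, 154 and 70.6 in EDA-labelled ones. At 22 months Tek stood at 33.8, 11.2, 24.8, 62.6 and 50.7 CPM in control-labelled libraries and at 40.6, 51.2 and 54.2 in EDA-labelled ones. The lowest value, 11.2, was in control-labelled replicate 2 at 22 months. That library had the photoreceptor transcripts and also the highest ENSMUSG00000119584 share of all. In control-labelled libraries the fitted difference of 22 from 12 months was -0.87 ± 0.47 (unadjusted p = 0.0782, adjusted p = 1, edgeR), with overlapping groups.

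Eng encodes endoglin, a co-receptor for ligands of the TGF-beta and BMP family on endothelium and some stromal cells. At 12 months Eng stood at 41.1, 56, 126, 44.6 and 29.8 CPM in control-labelled libraries and at 40.3, 39.6, 34.7, 23.4 and 48.3 in EDA-labelled ones. At 22 months Eng stood at 48.1, 44.6, 47.2, 46.3 and 80.8 CPM in control-labelled libraries and at 64.9, 43.9 and 203 in EDA-labelled ones. The value of 203 in replicate 3 was the highest of all 18. In EDA-labelled replicate 4 at 12 months Flt1, Tek, Vwf, Cdh5, Pecam1 and Slc2a1 each had their highest value within the group, and Eng had its lowest, 23.4.

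Vwf encodes von Willebrand factor, which endothelial cells store and release to tether platelets. At 12 months Vwf stood at 70.2, 78.2, 51.4, 140 and 41.4 CPM in control-labelled libraries and at 55.2, 76.5, 39.1, 207 and 48.4 in EDA-labelled ones. At 22 months Vwf stood at 73, 38.8, 28.1, 82.7 and 73.8 CPM in control-labelled libraries and at 89, 63.5 and 213 in EDA-labelled ones. The groups overlapped at both ages. The fitted difference between labels at 22 months was 1.04 ± 0.54 (unadjusted p = 0.0683, adjusted p = 1, edgeR), and it was 0.36 without EDA-labelled replicate 3. Megakaryocytes and platelets also hold Vwf; their 5 markers summed to 0 to 7.24 TPM, and Pf4 was at 0 in all 18 libraries. The sum of 7.24 was in that same EDA-labelled replicate 3, the next highest being 4.47, and the group medians at 22 months were 4.08 TPM for the EDA label and 1.07 for the control label. Single markers did not share 1 direction: between labels at 22 months Gp1bb was fitted at -7.61 ± 2.85 and Itga2b at 0.62 ± 1.91. These sums rest on few reads, as 0 of the 5 markers had 10 or more reads in at least 9 libraries. The part of megakaryocytes and platelets in the Vwf values was not tested.

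None of the 10 genes changed in any of the 6 comparisons by the adjusted test, and the background was the same: 0% of 15118 genes had an adjusted p under 0.05 in each comparison with edgeR. An unadjusted p under 0.05 was reached by 599 genes between labels at 22 months, 689 at 12 months, 720 averaged over ages, 530 for age in control-labelled libraries, 753 for age in EDA-labelled libraries and 608 for the interaction. DESeq2 called 34, 22, 28, 23, 41 and 32 genes in the same comparisons, none of them one of the 10. Over 1538 refitted values of the 10 genes under other settings, 0 passed the adjusted threshold.

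The first comparison was of EDA-labelled with control-labelled libraries at 22 months. There 7 of 10 had a fitted difference above 0, with a median of 0.54 (log2), beside 46% of all genes tested and a median of -0.07. No member had an unadjusted p under 0.05, which 3.96% of all genes did. The largest relative to their errors were Vwf and Eng, at 0.96 ± 0.48 for Eng (unadjusted p = 0.0568, adjusted p = 1, edgeR), and the Eng value was 0.03 without EDA-labelled replicate 3. Cdh5 at -0.49 ± 0.55, Kdr at -0.48 ± 1.77 and Abcb1a at -0.80 ± 1.78 were fitted below 0. The directions of Kdr and Abcb1a rested on single libraries. Kdr was 0.68 without control-labelled replicate 5, 0.09 without EDA-labelled replicate 1 and -2.71 without EDA-labelled replicate 2. Abcb1a was 0.47 without control-labelled replicate 4 and -7.24 without EDA-labelled replicate 2. No member had groups that did not overlap in any of the 4 comparisons between groups. Of all genes, 1.32% did so upward and 2.16% downward here, against 0.84% and 0.423% between labels at 12 months, 0.351% and 0.205% for age in control-labelled libraries, and 1.76% and 2.72% for age in EDA-labelled libraries.

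At 12 months 7 of 10 had a fitted difference above 0 (background 49.5%), with a median of 0.10, and no member had an unadjusted p under 0.05 (background 4.56%). Of these, Pecam1, Cdh5, Tek, Flt1 and Vwf were fitted below 0 once EDA-labelled replicate 4 was left out, at -0.12, -0.57, -0.48, -0.22 and -0.48. Averaged over the ages, 7 of 10 were above 0 (background 46.8%) with a median of 0.19, and none had an unadjusted p under 0.05 (background 4.76%). The averaged differences were 0.60 ± 0.36 for Vwf, 0.55 ± 0.33 for Flt1 and 0.41 ± 0.23 for Slc2a1, and -1.83 ± 1.22 for Abcb1a.

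**Figure D3:**
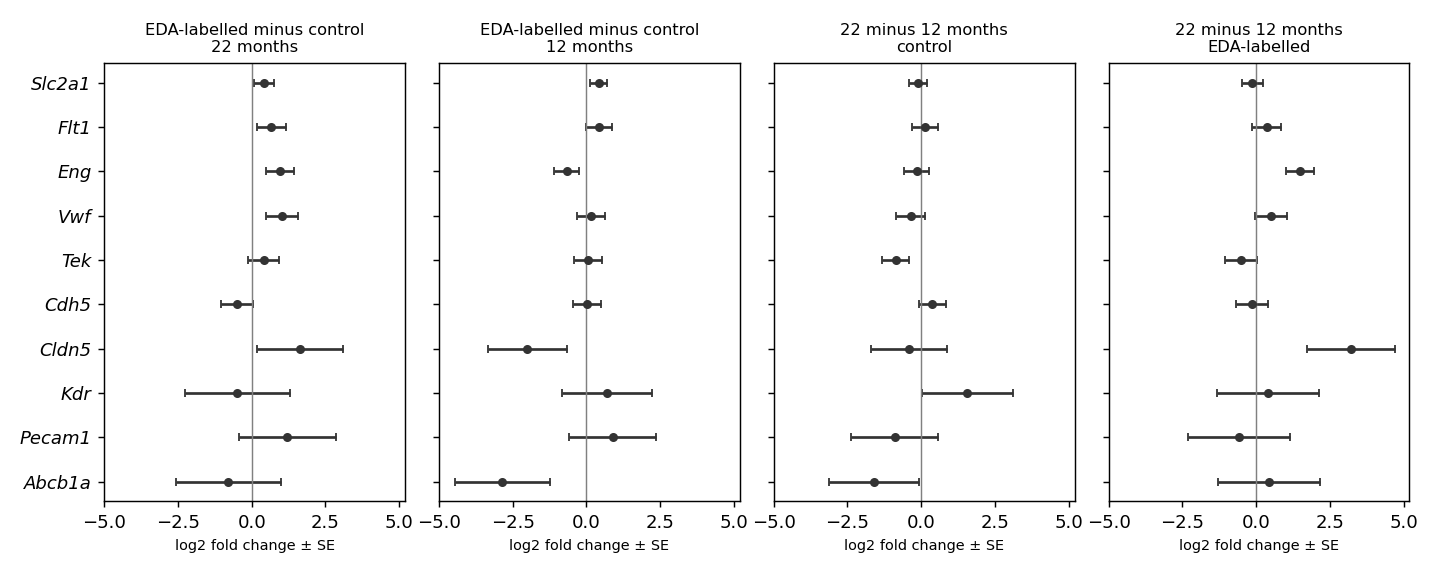
Fitted log2 fold changes of the 10 genes with their standard errors (bars) from edgeR, for EDA-labelled against control-labelled libraries at each age and for age within each label. The bars of Kdr, Pecam1, Cldn5 and Abcb1a are the widest, and Eng and Cldn5 at 22 against 12 months in EDA-labelled libraries lie farthest to the right of 0 relative to their errors.

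Age was compared among libraries of the same label. In control-labelled libraries 3 of 10 genes were fitted above 0 (background 51.6%), with a median of -0.26, and none had an unadjusted p under 0.05 (background 3.51%). In EDA-labelled libraries 6 of 10 were above 0 (background 46.9%), with a median of 0.38. There Eng was higher at 22 months by 1.48 ± 0.48 (log2, SE; unadjusted p = 0.00534, adjusted p = 0.961, edgeR) and Cldn5 by 3.22 ± 1.49 (unadjusted p = 0.0428, adjusted p = 0.961, edgeR). They were the 2 of 10 with an unadjusted p under 0.05, both higher, beside 4.98% of all genes in either direction and 2.6% upward. Neither passed the adjusted test.

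The value for Eng rested on 1 library. Without EDA-labelled replicate 3 at 22 months it was 0.55 (unadjusted p = 0.254). That library also had the highest Vwf value and the fewest genes with 10 or more reads, 9703. Its sum of lymphatic endothelium markers was the highest, 679 TPM against 344 in the next, of which 675 TPM was Pdpn. Lyve1 of the same list was at 0 in 17 libraries. The part of these traits in the Eng and Vwf values was not tested. Cldn5 was 2.86 to 4.12 as each library was left out in turn, and its unadjusted p reached 0.101. The interaction of label and age, which uses the same libraries, was 1.64 ± 0.64 for Eng (unadjusted p = 0.0181, adjusted p = 1, edgeR) and 3.63 ± 1.96 for Cldn5 (unadjusted p = 0.0787, adjusted p = 1). Without that replicate the interaction of Eng was 0.70. In the interaction 1 of 10 members had an unadjusted p under 0.05 with a higher value, beside 4.02% of all genes in either direction and 1.54% upward, and 8 of 10 were fitted above 0 (background 47.2%). These comparisons share libraries with the comparisons between labels, so their values are not independent of them.

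Other genes of the vessel wall and barrier did not pass the adjusted test either. Of 11 tight junction genes tested besides Cldn5, 3 were fitted above 0 at 22 months (median -0.64) and 6 at 12 months (median 0.01). Tjp1, the junction scaffold ZO-1 with a median level of 89.5 TPM, was fitted at -0.76 ± 0.33 at 22 months (unadjusted p = 0.0328, adjusted p = 1, edgeR) and at 0.02 ± 0.28 at 12 months. Afdn, the junction adaptor afadin, was fitted at -0.75 ± 0.32 averaged over ages, and Cgnl1, paracingulin, at 0.57 ± 0.38. Jam3 and Jam2, adhesion molecules of endothelium and glia, had the highest levels of the list, 911 and 255 TPM, and averaged differences of 0.00 ± 0.51 and 0.04 ± 0.24.

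Among 21 transport and barrier programme genes tested, 10 were above 0 at 22 months (median 0.00) and 9 at 12 months (median -0.10). The amino acid transporter gene Slc7a5 at 205 TPM, the efflux pump gene Abcg2 at 72.4 and the proteoglycan gene Spock2 at 64.5 had the highest levels. Abcg2 was therefore far more abundant than the other efflux pump Abcb1a, in TPM. Lef1, a transcription factor of the Wnt pathway that maintains the barrier, was fitted at 1.27 ± 0.67 at 22 months and -0.23 ± 0.59 at 12 months. Mfsd2a, a lipid transporter that limits vesicle traffic across the barrier, lay at 1.89 TPM, with an averaged difference of 1.10 ± 0.75, and Apcdd1, a Wnt regulator, at 13.9 TPM with -0.36 ± 0.32.

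In the VEGF, angiopoietin and endoglin pathways 18 genes were tested, of which 10 were above 0 at 22 months (median 0.01) and 6 at 12 months (median -0.17). The ligand Vegfa had a median level of 362 TPM, and the ligand Vegfb, which binds the Flt1 receptor but not the Kdr receptor, 52.8. Vegfb was fitted at 0.98 ± 0.43 at 22 months (unadjusted p = 0.0355, adjusted p = 1, edgeR) and at 0.09 ± 0.38 at 12 months. The sphingosine receptor S1pr1 lay at 239 TPM, the BMP target Id3 at 186, the VEGF co-receptor Nrp1 at 6.52 and the Notch target Hey1 at 6.38. Averaged over ages these 4 were fitted at 0.20 ± 0.26, -0.29 ± 0.48, -0.49 ± 0.31 and -1.34 ± 0.77.

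Of 19 other pan-endothelial genes tested, 13 were above 0 at 22 months (median 0.19) and 11 at 12 months (median 0.09). Clec14a, an endothelial lectin-like receptor that was at 0 in 6 libraries, was fitted at -4.09 ± 1.69 at 12 months (unadjusted p = 0.0253, adjusted p = 1, edgeR) and -2.12 ± 1.87 at 22 months. Podxl was fitted at 0.72 ± 0.42 and Robo4, a vessel-stabilising receptor, at 0.74 ± 0.53 averaged over ages. Of 6 activation and haemostasis genes tested among 12, 4 were above 0 at 22 months (median 0.15) and 2 at 12 months (median -0.38). The leukocyte adhesion gene Vcam1 lay at 247 TPM, thrombomodulin (Thbd) at 29.3 and plasminogen activator Plat at 28.3.

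All 6 fenestration and vesicle genes were tested, of which 4 were above 0 at 22 months (median 0.23) and 4 at 12 months (median 0.18). Plvap, the protein of fenestral diaphragms that barrier vessels lack, had a median level of 18.3 TPM, above the 3.33 of Cldn5. The caveolar genes Cav1, Cavin1 and Cavin2 lay at 90.4, 17.3 and 11.5 TPM.

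Markers of the other cells in a vessel wall and in the tissue are given beside these values. Pericyte markers, 8 of 9 with 10 or more reads in at least 9 libraries, had median sums of 80.6 and 87.3 TPM in control-labelled libraries at 12 and 22 months and 103 and 88.1 in EDA-labelled ones. Smooth muscle markers summed to medians of 240 and 561 TPM in control-labelled and 962 and 402 in EDA-labelled libraries. The sum reached 3230 in EDA-labelled replicate 3 at 12 months, of which 2980 was Cnn1. Over all libraries Cnn1 had a median of 374 TPM, against 23.8 for Acta2 and 29.8 for Myl9 of the same list. The contractile actin gene Acta2 was fitted at 1.61 ± 0.48 averaged over ages (unadjusted p = 0.00333, adjusted p = 1, edgeR). Astrocyte markers summed to 3150 to 18800 TPM, with the highest sum in EDA-labelled replicate 4 at 12 months, where Slc2a1 also had its highest value. Of that sum, 17700 was Gfap. Between labels at 12 months 3 of 6 astrocyte markers were fitted above 0, with Gfap at 0.66 ± 0.34 and Aldoc at -1.22 ± 0.59. The part of these other cells in the values of the 10 genes was not tested.

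Of the remaining lists, fibroblast markers summed to 130 to 557 TPM over all libraries, microglial markers to 136 to 1600 and oligodendrocyte markers to 159 to 22300. Erythroid markers summed to 0.91 to 62.1 TPM, and pigment cell and epithelium markers to 8.26 to 70.4, with Tyr at 0 in all libraries. Lymphatic endothelium, a close relative of blood endothelium, was represented by 4 markers that summed to 32.6 to 679 TPM. Of these, Lyve1 was at 0 in 17 libraries. Pdpn had a median of 127 TPM and reached 675, and Prox1 had a median of 17.7 and reached 40.7. Photoreceptor markers summed to 1.35 to 160 TPM outside control-labelled replicate 2 at 22 months.

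The 10 genes varied together only in part. Across the 45 pairs the median Pearson r of log2 CPM less the group mean was 0.15 over 18 libraries, with 34 pairs above 0, 9 at 0.5 or more and a range of -0.50 to 0.70. For the 6 well-detected genes 13 of 15 pairs were above 0, with a median of 0.36. The closest pair was Flt1 and Vwf at 0.70, followed by Kdr and Abcb1a at 0.65, Tek and Vwf at 0.63, and Cdh5 and Flt1 at 0.63. Without EDA-labelled replicate 4 at 12 months these values were 0.50, 0.66, 0.47 and 0.35, and the closest pair was Flt1 and Eng, at 0.78 against 0.36 with it. Over all 18 libraries Eng was closest to Cldn5, at 0.52 (0.48 without that library), and lay at -0.50 with Abcb1a (-0.58). The values of Cdh5 with Vwf, Tek and Pecam1, 0.37, 0.36 and 0.36, rested on the same library and were -0.01, 0.04 and 0.06 without it. Tek with Flt1 and with Pecam1 fell from 0.52 and 0.45 to 0.26 each. Among the 6 well-detected genes, Slc2a1 with Cdh5 and with Tek went from 0.10 and 0.14 to -0.25 and -0.11. The median over all 45 pairs was 0.19 without that library. A median of the 15 pairs without it, and one for pairs of other genes, were not computed. The libraries share depth and composition, and these values are a description.

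**Figure D4:**
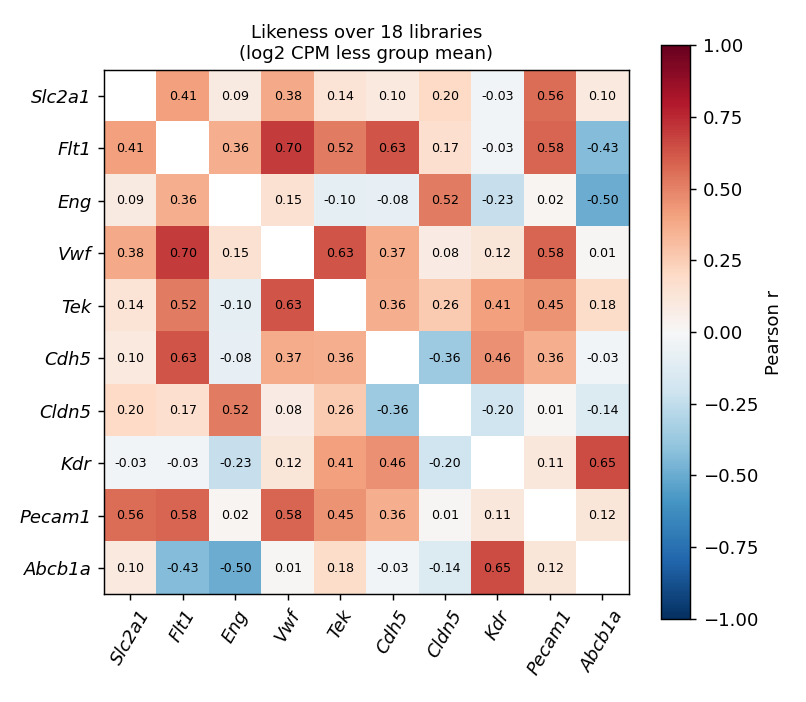
Pearson r of log2 CPM less the group mean for each pair of the 10 genes over 18 libraries, as coloured squares with the value printed. Pairs among Flt1, Vwf, Tek, Cdh5 and Pecam1 lie at 0.36 to 0.70, those of Cdh5 with Vwf, Tek and Pecam1 at -0.01 to 0.06 without EDA-labelled replicate 4 at 12 months, while Abcb1a lies at -0.50 with Eng.

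Among the genes whose pattern was most like the mean of the 10, of 7189 others compared over 18 libraries, were Atraid (r = 0.888), Ndor1 (0.87), Colgalt1, a collagen glycosyltransferase (0.863), the histone demethylase gene Kdm5b (0.845) and the receptor kinase gene Axl (0.844). None of these 5 belongs to a vascular list used here. Of the listed genes the most alike was Lef1 at 0.83, in place 8 of all compared, followed by S1pr1 at 0.77 in place 58 and Vegfb at 0.72 in place 135. Listed genes of vessels and barrier also ran the other way. Among them were Afdn at -0.77 in place 7172, Thbd at -0.55 in place 6464 and Abcg2 at -0.55 in place 6435.

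Of the 10 genes, Flt1, Tek and Vwf had the lowest correlations with the share of ENSMUSG00000119584. With group means removed, log2 CPM of Flt1 fell as the log2 share rose, with Pearson r = -0.83 (permutation p = 2e-05, adjusted over 10 relations p = 0.0002) and Spearman rho = -0.76 (permutation p = 0.00039, adjusted p = 0.0039), n = 18. Without the 2 libraries farthest from the median share, EDA-labelled replicate 4 at 12 months and replicate 3 at 22 months, r was -0.70. Of all 15118 genes 0.886% had a value as low or lower, and the median over all genes was 0.16. The permutations did not allow for the group means removed, so their p-values lean small, here and for the genes below.

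For Tek r was -0.65 (permutation p = 0.00324, adjusted p = 0.0153) and rho -0.56 (permutation p = 0.0169, adjusted p = 0.0564), with r = -0.51 without those 2 libraries, and 4.39% of all genes had an r as low or lower. For Vwf r was -0.64 (permutation p = 0.00459, adjusted p = 0.0153) and rho -0.57 (permutation p = 0.0148, adjusted p = 0.0564), and 4.68% of all genes were as low or lower. The relation of Vwf rested on those libraries, with r = -0.29 without them. The other 7 genes had r from -0.49 to 0.37 and adjusted permutation p from 0.0876 to 0.89. Without those 2 libraries Cldn5 and Eng had r of -0.82 and -0.70.

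The share also differed between groups, at 10.7% to 32.8% in control-labelled and 4.8% to 17.3% in EDA-labelled libraries at 22 months. With the log2 share as a covariate, the fitted difference between labels at 22 months became -0.30 for Flt1, -0.22 for Tek, 0.03 for Vwf, 0.21 for Eng and -0.20 for Cldn5. At 12 months it became -0.37 for Flt1, -0.76 for Tek and -0.66 for Vwf. The directions between labels of Flt1 and Tek, of Cldn5 at 22 months and of Vwf at 12 months therefore turned with this covariate, which was added after the data were seen. No batch is given in the labels, so that no value within batches could be computed.

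**Figure D5:**
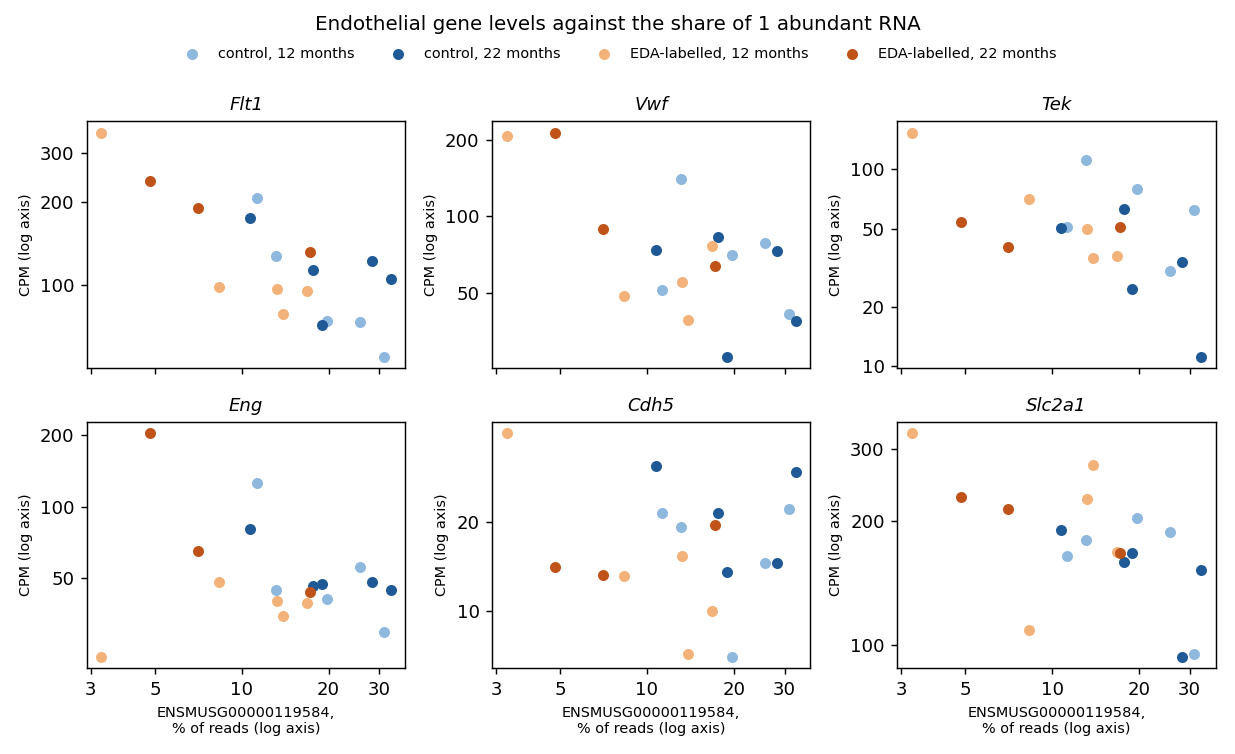
CPM of the 6 well-detected genes (y axis, log) against the percentage of reads on ENSMUSG00000119584 (x axis, log); each point is 1 of 18 libraries, coloured by group. Flt1 runs from 356 CPM at the lowest share, 3.26%, to 105 CPM at the highest share, 32.8%, and its lowest value, 55.2 CPM, is at a share of 31%.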

How the data were processed

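Per the labels' protocols, low-input cDNA was made with the SMART-Seq v4 kit, tagmented with Nextera XT without strand marking, sequenced in read pairs, aligned with STAR and quantified with RSEM. The build was GRCm39, per the submitters' processing notes. Versions of STAR and RSEM, not given in the sources used here, are left out. The gene and isoform tables deposited by the authors hold expected counts, estimates of which 3.59% of the gene values were not whole numbers. They also hold TPM values, deposited by the authors, which were used here for levels between genes and isoforms.

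Expected counts were rounded and fitted with edgeR 4.0.16 in R 4.3.3: TMM scaling, filterByExpr with a minimum count of 10 (15118 genes kept), 4 group means, robust quasi-likelihood, 6 contrasts, Benjamini-Hochberg adjustment and a threshold of 0.05. The log2 CPM values used for correlations had a prior count of 2. Correlation p-values came from 100000 permutations, two-sided. These shuffled the values less group means over all 18 libraries, not within groups. They did not allow for the group means removed, so the p-values lean small. Alternatives used DESeq2 1.42.0, limma 3.58.1 (voom with quality weights), RLE scaling, no filter, only the compared groups, a covariate of Xist against Y-linked genes, and leaving out each of 18 libraries; a covariate of the ENSMUSG00000119584 share, and leaving out 3 libraries together, were added after the data were seen. The fit was tested on simulated data, with changes planted only in genes of higher level, and the outcome is not given here. That test does not bear on the sparse members Cldn5, Kdr, Pecam1 and Abcb1a. Every pair of libraries within a group differed by more than sampling noise.

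Of 55416 gene identifiers, 52083 were given symbols, through tables and GENCODE and RefSeq annotation of GRCm38, which was used for names, isoform structure and sequences only. Promoter windows were found for 7 of 10 members. Groups came from the titles, and replicates were numbered in accession order. The members and all gene lists were chosen with earlier results of these data known. Besides all 10 members, the text names up to 3 genes of each list with the smallest p in the label contrast (EDA against control) averaged over ages, up to 3 with the highest median TPM, and the 6 genes most like the members' mean. A gene among those most like the members is not reported here.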

Additional observations from a re-analysis of the deposited data

Results flagged for a closer look

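Each of the 10 genes was checked in each group of 5 libraries, 30 groups in all, for a single library set apart from the rest: the gap of the highest or lowest library to its nearest neighbour was divided by the whole range on the log2 CPM scale and compared with the critical value of 0.71. Chance flags about 1 in 20 such groups, and 4 of 30 were found.

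Flt1 in EDA-labelled libraries at 12 months had its highest value in replicate 4, at 356 CPM, with a gap of 0.85 of the range. Eng in control-labelled libraries at 22 months had its highest value in replicate 5, at 80.8 CPM, with a gap of 0.87. Slc2a1 in control-labelled libraries at 12 months had its lowest value in replicate 5, at 95.4 CPM, with a gap of 0.72. Abcb1a in control-labelled libraries at 12 months had its lowest value in replicate 3, at 0 CPM, with a gap of 0.85. The first of these libraries had the lowest share of ENSMUSG00000119584 of all 18, 3.26%, and the highest sum of astrocyte markers, most of it Gfap.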

How the results depend on the processing

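No member passed the adjusted threshold under any of the alternatives tried, and the direction of 81 of 1538 refitted member values reversed, 39 of them on leaving out 1 library. None of 60 values reversed with DESeq2, with RLE scaling or without the low-count filter, and none of 38 with only the compared groups. No paired analysis was possible because the labels give no replicate numbers shared between groups. The counts of genes with an adjusted p under 0.05 were 0 with edgeR; DESeq2 gave 34 for label at 22 months, 22 at 12 months, 28 averaged, 23 for age in control-labelled libraries, 41 for age in EDA-labelled libraries and 32 for the interaction. Voom with quality weights gave 1 at 22 months, 2 at 12 months and 1 for the interaction, and leaving out 1 library gave 0 to 1 at 12 months. The cause of these differences was not tested. For label at 22 months, leaving out 1 library at a time gave -7.24 to 0.47 for Abcb1a, -2.71 to 0.68 for Kdr. For label at 12 months the ranges were -0.57 to 0.21 for Cdh5, -0.22 to 0.88 for Flt1, -0.12 to 1.28 for Pecam1, -0.48 to 0.31 for Tek, -0.48 to 0.50 for Vwf. For label averaged over ages the ranges were -0.63 to 0.04 for Cldn5, -0.32 to 0.42 for Eng, -1.01 to 0.68 for Kdr, -0.03 to 0.37 for Tek. For age in control-labelled libraries the ranges were -0.35 to 0.32 for Eng, -0.06 to 0.52 for Flt1, -0.27 to 0.01 for Slc2a1. For age in EDA-labelled libraries the ranges were -5.99 to 1.03 for Abcb1a, -0.33 to 0.46 for Cdh5, -1.84 to 0.96 for Kdr, -0.90 to 0.43 for Pecam1, -0.29 to 0.06 for Slc2a1, -0.67 to 0.02 for Tek, -0.16 to 1.16 for Vwf. For the interaction the ranges were -4.39 to 3.32 for Abcb1a, -0.71 to 0.08 for Cdh5, -0.18 to 0.88 for Flt1, -0.07 to 1.49 for Pecam1. The correlation of Kdr with the share of ENSMUSG00000119584 ranged from -0.24 to 0.13. Voom with quality weights reversed the fitted log2 difference for label at 12 months, Cdh5 -0.45, Tek -0.48, Vwf -0.35, and for label averaged over ages, Tek -0.10, and for age in control-labelled libraries, Cldn5 0.92, Eng 0.08, and for age in EDA-labelled libraries, Pecam1 0.92, Cdh5 0.43, Tek 0.01, Kdr -1.22, Slc2a1 0.02, Abcb1a -1.80, and for the interaction, Cdh5 0.15. The covariate of Xist against Y-linked genes reversed it for label at 12 months, Cdh5 -0.03, Tek -0.07, and for age in EDA-labelled libraries, Kdr -1.25. The covariate of the ENSMUSG00000119584 share, added after the data were seen, reversed it for label at 22 months, Cldn5 -0.20, Tek -0.22, Flt1 -0.30, and for label at 12 months, Pecam1 -0.14, Cdh5 -0.50, Tek -0.76, Flt1 -0.37, Vwf -0.66, and for label averaged over ages, Pecam1 -0.01, Tek -0.49, Flt1 -0.34, Vwf -0.32, Eng -0.38, and for age in EDA-labelled libraries, Cdh5 0.02, Abcb1a -0.16. Leaving out 3 libraries that stand apart together, also added later, reversed it for label at 12 months, Pecam1 -0.10, Cdh5 -0.58, Tek -0.47, Flt1 -0.22, Vwf -0.47, and for label averaged over ages, Tek -0.07, and for age in EDA-labelled libraries, Pecam1 0.35, Cdh5 0.60, Tek 0.18, Slc2a1 0.08, and for the interaction, Cdh5 0.35. Voom shifted the median of all genes to 0.12 at 12 months and -0.13 in the interaction, and the share covariate to 0.11 at 12 months. The 9 to 13 libraries with 10 or more reads limit what Pecam1, Abcb1a, Kdr and Cldn5 can show.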
